A study of Folsomia candida with 36 samples.

Results

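The change from day 2 to day 3 on soil was followed in whole springtails by RNA sequencing. Libraries were chosen by the time in their labels: 12 libraries taken at 60 and 72 h (day 3) were compared with 12 taken at 36 and 48 h (day 2), 24 of the 36 libraries of a time course in which samples were taken every 12 h. The hour classes were balanced, since 60 h and 36 h lie at the same hour of the day, as do 72 h and 48 h. The animals were Folsomia candida of the Berlin strain with the genotype given as WT, sampled as whole bodies, and their age is not stated in the labels. Pools of 70 were kept on the natural soil LUFA2.2 at 20 °C with 16 h of light and 8 h of dark. The soil held imidacloprid at 0.25 mg per kg dry weight, a dose given as lowering reproduction by 20% (EC20), or had only been mixed with water (control). This gave 8 groups of treatment and time with 3 libraries each. No label says whether libraries of a group came from separate jars, so p-values measure the spread between these libraries, which may be partly technical. Since whole bodies were sequenced, fewer cells of a type and less RNA per cell cannot be told apart.

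Folsomia candida is a blind, soil-dwelling hexapod that reproduces by parthenogenesis and goes on moulting throughout adult life. Moults alternate with reproductive periods, and each moult renews the cuticle and the lining of the midgut. Imidacloprid is a neonicotinoid that acts on nicotinic acetylcholine receptors of the nervous system. Identifiers of genes are those of the count table. None was found in the gene table used here, so no function is assigned to any gene. The whole-body label was not checked against marker genes for the same reason.

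Libraries held between 20280135 and 42146055 counts, with medians of 25350002 on day 2 and 25760071 on day 3. A gene with 3 counts stood between 0.0712 and 0.148 counts-per-million (CPM) in these libraries, which is the floor of detection by counting error alone. Of 28734 gene models, 19366 (67.4%) had enough counts to be tested, and they held almost all counts (99.97%). Of the variance in log2 CPM of the tested genes, 10.7% went with day, 3.13% with treatment and 4.14% with hour class. Any split of the 24 libraries takes up some variance, so the smaller shares of treatment and hour class are not read as effects. A set of 108 genes that rise and fall together set some libraries apart: their mean log2 CPM was between -3.16 and -2.60 in 16 of the 24 libraries and between -0.45 and 3.20 in the other 8. These 8 were not evenly placed. On day 2 they were 3 controls (36 h replicate 5 and 48 h replicates 2 and 6), and on day 3 they were 1 control (72 h replicate 5) and 4 imidacloprid libraries (60 h replicates 3 and 5, 72 h replicate 1 and the library numbered 71 of the pair at 72 h that both carry replicate number 4). The level of the set alone went with 26.0% of the variance, and day with 8.63% once that level was in the model. The set was picked for high variance over all 36 libraries, these 24 among them, and its genes are part of the variance. Its share is therefore partly fixed by the choice and is not to be weighed against that of day.

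**Figure D1:**
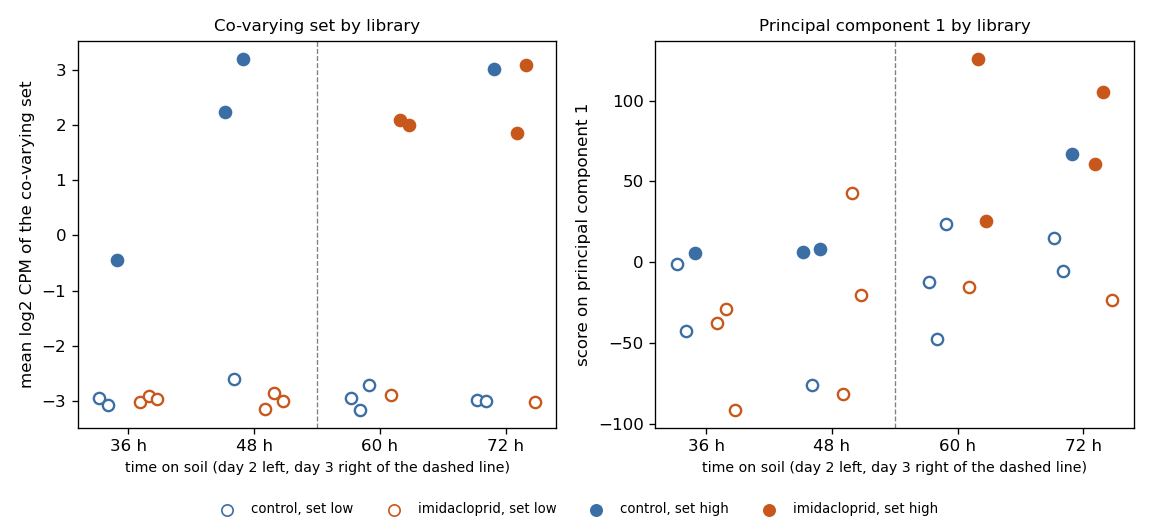
Left, mean log2 CPM of the 108 co-varying genes in each of the 24 libraries by hours on soil. Right, score of each library on the first principal component of log2 CPM, which held 31.8% of the variance. Filled points are libraries with the set above -2, 3 on day 2 and 5 on day 3. The component was above 0 in 4 of 12 day 2 libraries and 7 of 12 day 3 libraries, and imidacloprid 48 h replicate 5 had the highest score of day 2 at 42.7.

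Between day 2 and day 3, 119 genes rose and 62 fell, most of them by less than 2-fold. These 181 genes passed an adjusted p of 0.05 (edgeR quasi-likelihood test with treatment and hour class in the model, Benjamini-Hochberg), which is 0.935% of the tested genes (0.614% higher and 0.32% lower). DESeq2 called 2584 (1142 higher and 1442 lower) and limma-voom 165. The median log2 fold change was 0.85 in the genes that rose and -0.87 in those that fell, against 0.09 over all tested genes. A log2 fold change above 1 was seen in 46 of the genes that rose, and one below -1 in 26 of those that fell. The called genes were spread over all levels of expression: 0.459% of genes under 1 CPM were called, 1.21% of those from 1 to 10 CPM, 0.783% of those from 10 to 100 CPM and 1.51% of those above 100 CPM. Of the 100 most abundant genes 1 was called, and it rose. As a share of all counts, the genes that rose went from 0.570% ± 0.109 (SD, n = 12) on day 2 to 0.936% ± 0.163 on day 3, and those that fell from 0.380% ± 0.0306 to 0.245% ± 0.0276. The genes were chosen on these same libraries, so the direction of these medians and shares is fixed by the choice and tests nothing. None of the 181 belonged to the co-varying set. With 0.935% of tested genes called, few calls would fall in any 108 genes, so this does not set the called genes apart from it.

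**Figure D2:**
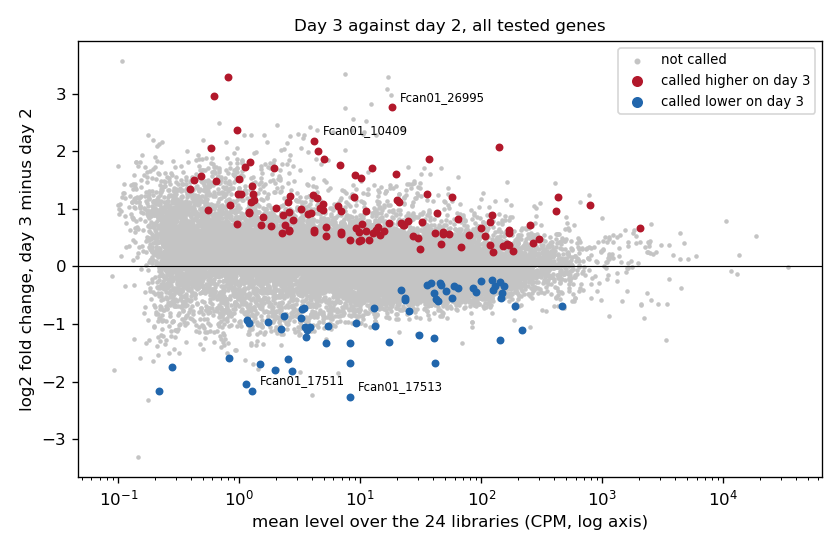
Log2 fold change from day 2 to day 3 (y axis) against mean level in CPM on a log axis (x axis) for the 19366 tested genes. Red and blue points are the 119 genes called higher and the 62 called lower on day 3, and the 4 named genes are marked. Many uncalled genes changed by as much as the called ones, and called genes were found from a mean of 0.217 CPM to one of 2029 CPM.

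Many more genes leaned one way than passed the test. An unadjusted p under 0.05 was reached by 6136 genes, 3112 higher and 3024 lower, where 5% of the tested genes is 968. The number of calls moved strongly with single libraries. Without imidacloprid 48 h replicate 5 it rose to 4963 (all 181 among them), without control 60 h replicate 5 to 943, without control 36 h replicates 5 and 3 to 433 and 432, and without imidacloprid 60 h replicate 5 to 299. It was 190, 185 and 126 without control 36 h replicate 4, control 60 h replicate 2 and imidacloprid 60 h replicate 1, and lay between 43 and 114 when any of the other 16 libraries was left out. Of the 181 genes, 41 (23 higher, 18 lower) were called in all 24 of these runs. Without the 8 libraries in which the co-varying set was high, 9 day 2 and 7 day 3 libraries remained. Among them 0 genes passed in edgeR, while 1160 had an unadjusted p under 0.05. Those left were mostly exposed on day 2 and mostly controls on day 3, so treatment was no longer balanced over the days. Of the exposed day 3 libraries only 60 h replicate 1 and the 72 h library numbered 72 remained, both of irregular title.

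**Figure D3:**
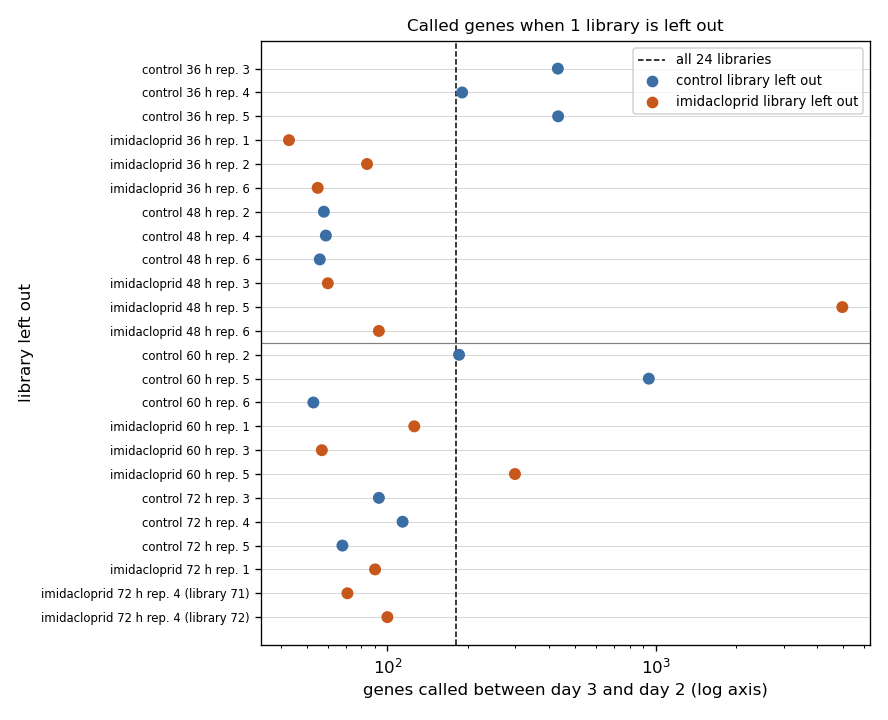
Number of genes called between day 3 and day 2 (log axis) when each of the 24 libraries named on the y axis was left out in turn. The dashed line marks the 181 genes called with all libraries, and day 2 libraries stand above the grey line. Counts ran from 43 without imidacloprid 36 h replicate 1 to 4963 without imidacloprid 48 h replicate 5.

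Fcan01_26995 had the largest rise among called genes of at least 1 CPM that moved the same way in both treatments and both hour classes. Its level on day 2 was 1.09 CPM at the lowest, 4.10 at the median and 17.3 at the highest of 12 libraries. On day 3 the same values were 8.26, 29.6 and 54.6. All 12 day 3 libraries lay above the day 2 median and 9 lay above every day 2 library. The groups overlapped only between 48 and 60 h: all 6 libraries at 60 h exceeded all 6 at 36 h, and all 6 at 72 h exceeded all 6 at 48 h. Such separation is partly fixed, since the gene was chosen on these libraries. Its log2 fold change was 2.76 ± 0.39 (SE), a 6.80-fold rise (edgeR adjusted p = 0.00231). On day 1 (12 and 24 h) this gene had stood between 0.595 and 1.82 CPM in all 12 libraries, so its level was low and even before it rose.

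Fcan01_10409 rose as well, with more spread between libraries. Day 2 values ran from 0.545 CPM over a median of 0.960 to 4.89, and day 3 values from 0.667 over 4.37 to 22.9. The days overlapped: 6 of 12 day 3 libraries lay above every day 2 library, and 1, control 60 h replicate 2, lay below the day 2 median. Its log2 fold change was 2.18 ± 0.50 (4.55-fold, edgeR adjusted p = 0.0401). The call held in 11 of the 24 runs with 1 library left out, in which the log2 fold change was 1.87 to 2.44. It was lost in 7 of 12 other alternatives. With limma-voom its adjusted p was 0.0695, and over all alternatives it ran from 0.00108 to 0.689. The lowest log2 fold change was 1.57, with the replicate number as a block (edgeR adjusted p = 0.167).

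Fcan01_17513 showed the largest fall among the called genes. Its level ran from 4.27 CPM over a median of 11.6 to 36.4 on day 2 and from 0.616 over 2.34 to 7.498 on day 3. No day 3 library reached the day 2 median, and 9 of 12 lay below every day 2 library. Within controls and within imidacloprid all 6 day 3 libraries lay below all 6 of day 2. The log2 fold change was -2.27 ± 0.31 (4.82-fold lower, edgeR adjusted p = 0.00231). Day 1 values had been higher still, at 5.82, 22.2 and 195 CPM for the lowest, median and highest library.

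Fcan01_17511, whose identifier lies next but one to that of the last gene, fell as well. It stood between 0.563 and 7.41 CPM on day 2 (median 1.64) and between 0 and 1.04 on day 3 (median 0.350), with 1 control library at 72 h listed at 0. Of the 12 day 3 libraries, 8 lay below every day 2 library. Its log2 fold change was -2.17 ± 0.42 (4.49-fold lower, edgeR adjusted p = 0.0161). Without imidacloprid 36 h replicate 1, the library with its highest day 2 value, the call was lost, the log2 fold change then being -1.96 (edgeR adjusted p = 0.0510, in a range from 1.78e-05 to 0.357 over all alternatives). The gene and Fcan01_17513 shared their highest library of day 1, imidacloprid 12 h replicate 2, at 46.1 and 195 CPM. Fcan01_17512, between them in number, had 48 counts over the 24 libraries and was too low to test.

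**Figure D4:**
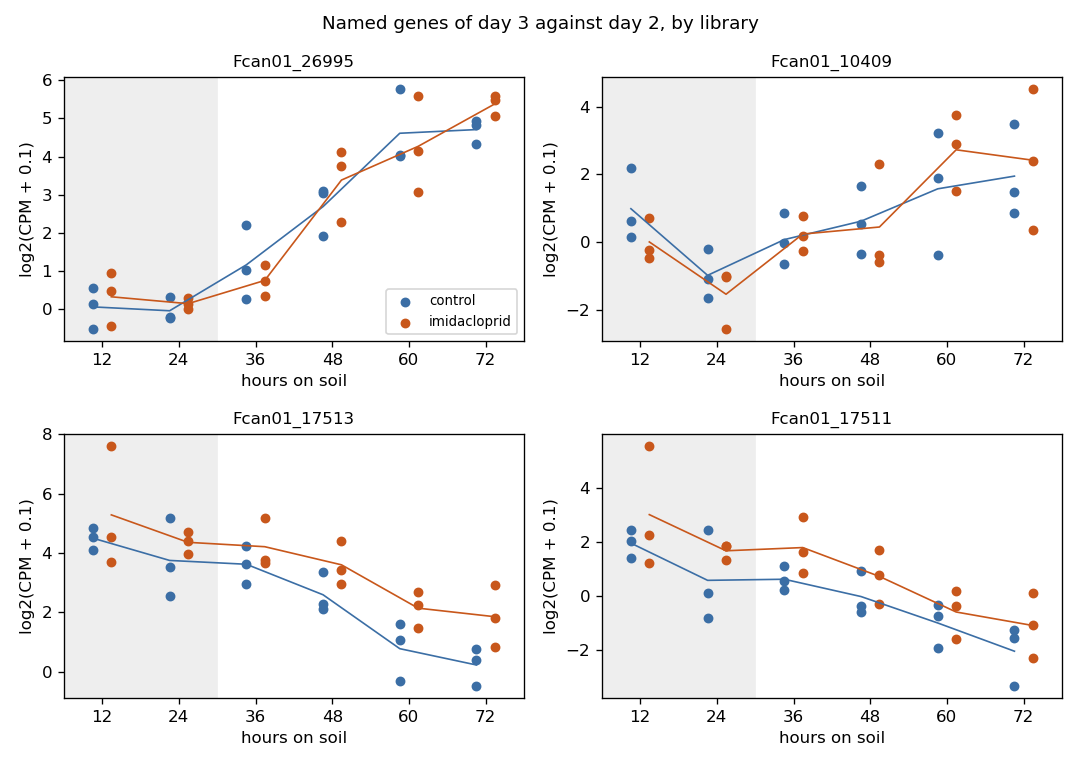
Level of the 4 named genes in each library as log2(CPM + 0.1) against hours on soil. Points are libraries, lines join group means of these log2 values, and the grey area is day 1, which the comparison did not use. Fcan01_26995 stood at 0.595 to 1.82 CPM on day 1 and at 8.26 to 54.6 CPM on day 3, while Fcan01_17513 and Fcan01_17511 were highest on day 1 and lowest on day 3.

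Without the 8 libraries in which the co-varying set was high, these changes kept their size while no call was made. Fewer libraries then remained, with treatment unbalanced over the days, and what made the calls drop out was not tested. The log2 fold changes were then 3.33 for Fcan01_26995, 1.95 for Fcan01_10409, -2.43 for Fcan01_17513 and -2.41 for Fcan01_17511. Their adjusted p-values in edgeR were 0.164, 0.689, 0.164 and 0.357. For Fcan01_26995 and Fcan01_17513 the call held in every run with 1 library left out and in 11 of 12 other alternatives, whose adjusted p reached down to 1.76e-11.

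In most called genes the day 1 level lay beyond that of day 2, on the side away from day 3. The mean level on day 1 lay below that of both later days in 79 of the 119 genes that rose, between them in 37 and above both in 3. It lay above both later days in 36 of the 62 that fell and between them in 26, and below both in 0. Over all tested genes, 5932 had their day 1 level below both, 8755 between and 4679 above both. The median step from day 1 to day 2 was 0.12 in log2 units for the genes that rose and -0.16 for those that fell, against 0.85 and -0.85 from day 2 to day 3. The called genes were chosen on the day 2 and day 3 libraries, so these positions describe them and test nothing.

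The day change was then read separately in controls and on imidacloprid soil, which share no library. Both readings came from the same fit of 8 group means. That fit has a shared estimate of spread for each gene, so their p-values are not independent. In controls 6 genes passed the test (0.031% of those tested, with 2 or 0.0103% higher and 4 or 0.0207% lower), and with imidacloprid 5 (0.0258%, with 4 or 0.0207% higher and 1 or 0.00516% lower). In the same order DESeq2 counted 128 and 1589 genes, and limma-voom 10 and 0. Unadjusted p-values under 0.05 were reached by 3013 genes in controls and 4767 with imidacloprid. All 6 day 3 control libraries lay above all 6 of day 2 in 59 genes (0.305%) and below in 79 (0.408%). With imidacloprid these numbers were 96 (0.496%) and 55 (0.284%), and over all 24 libraries they were 0 and 0. Both lists of calls were short and easily lost. The 6 calls of controls became 0 in 15 of 24 runs without 1 library and lay between 1 and 8 in the others. The 5 of imidacloprid became 0 in 8 runs, rose to 3067 without imidacloprid 48 h replicate 5, to 372 without control 72 h replicate 5 and to 68 without imidacloprid 60 h replicate 5, and lay between 3 and 18 in the others.

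Genes with an unadjusted p under 0.05 in one treatment mostly had the same sign in the other. Of the 1849 genes higher in controls at an unadjusted p under 0.05, 83.0% were also higher with imidacloprid, where 54.9% of all tested genes were higher. Of the 1164 lower genes 88.1% were also lower, where 45.1% of all tested genes were. Read the other way, 69.3% of the 2916 genes higher with imidacloprid were also higher in controls, where 56.0% of all tested genes were. Of the 1851 genes lower with imidacloprid 77.1% were also lower in controls, where 44.0% of all were. An unadjusted p under 0.05 in both treatments was reached by 503 rising genes, 27.2% of those in controls and 17.2% of those with imidacloprid, where 15.1% of all tested genes reached it with imidacloprid and 9.55% in controls. For falling genes it was 218, or 18.7% of those in controls and 11.8% of those with imidacloprid, against 9.56% and 6.01% of all tested genes. Since the estimate of spread is shared, a gene of low spread reaches this p more easily in both treatments. How much overlap that alone would give was not tested. Across all 19366 genes the log2 fold changes of the treatments had a Spearman correlation of 0.41 and a Pearson correlation of -0.18. Genes are not independent replicates. Without the 108 genes of the co-varying set the values were 0.44 and -0.08.

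In controls, Fcan01_26995 rose by 2.74 ± 0.46 on the log2 scale (6.66-fold, edgeR adjusted p = 0.0447). With imidacloprid it rose by 2.89 ± 0.47 (7.43-fold, edgeR adjusted p = 0.0269). Control libraries ran from 1.09 over a median of 4.10 to 8.47 CPM on day 2 and from 16.1 over 24.4 to 54.6 on day 3. Imidacloprid libraries ran from 1.17 over 3.45 to 17.3 and from 8.26 over 39.1 to 48.3. The treatments thus overlapped on both days, and the change differed between them by 0.16 ± 0.62 (edgeR adjusted p = 0.992).

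Fcan01_09354 rose in controls from a range of 56.0 to 92.6 CPM (median 78.0) to one of 115 to 208 (median 146). The ranges did not overlap, and its log2 fold change was 1.02 ± 0.16 (2.02-fold, edgeR adjusted p = 0.0447). With imidacloprid it stood between 78.1 and 142 CPM on day 2 and between 121 and 161 on day 3, and its change there of 0.54 ± 0.16 did not pass (edgeR adjusted p = 0.0868). The difference between the changes was -0.47 ± 0.23 (edgeR adjusted p = 0.545).

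Of the falling genes in controls, Fcan01_17513 changed by -2.66 ± 0.46 (6.31-fold lower, edgeR adjusted p = 0.0447), against -1.91 ± 0.44 with imidacloprid (edgeR adjusted p = 0.0766). Fcan01_26605 fell from between 3.12 and 5.91 CPM on day 2 (median 5.09) to between 0.360 and 2.77 on day 3 (median 1.21) in controls. That is -1.99 ± 0.33 on the log2 scale (3.98-fold lower, edgeR adjusted p = 0.0447), with no overlap between the days. On imidacloprid soil it stood between 3.11 and 4.82 CPM (median 3.70) and then between 2.33 and 4.31 (median 3.08), a log2 fold change of -0.25 ± 0.32. The change differed between treatments by 1.74 ± 0.45, with an unadjusted p of 0.00109 that did not survive adjustment (edgeR adjusted p = 0.295).

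With imidacloprid, Fcan01_11010 rose from between 21.0 and 102 CPM on day 2 (median 49.9) to between 121 and 494 on day 3 (median 226). All 6 exposed day 3 libraries lay above all 6 of day 2, and the log2 fold change was 2.62 ± 0.42 (6.13-fold, edgeR adjusted p = 0.0269). In controls the medians were 43.1 and 137 CPM and the change 1.56 ± 0.40 (edgeR adjusted p = 0.229). Fcan01_27279 rose with imidacloprid from a median of 4.50 CPM (3.19 to 7.62) to one of 19.8 (6.62 to 35.7), by 2.10 ± 0.33 (4.29-fold, edgeR adjusted p = 0.0269). For Fcan01_07656 the medians were 3.20 (1.82 to 5.35) and 7.88 (4.74 to 10.8), a change of 1.20 ± 0.20 (2.29-fold, edgeR adjusted p = 0.0269). In controls the medians of Fcan01_27279 were 4.30 (2.21 to 8.29) and 8.08 (5.51 to 15.1), a change of 1.11 ± 0.33 (edgeR adjusted p = 0.28). Those of Fcan01_07656 were 4.88 (3.09 to 7.42) and 5.97 (3.63 to 10.5), a change of 0.41 ± 0.19 (edgeR adjusted p = 0.32), and its control change from 36 to 60 h was -0.34. In each of the last 2 genes, 5 of 6 exposed day 3 libraries lay above every exposed day 2 library. Both are given because the list is short, after their values were seen.

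The fall called with imidacloprid was that of Fcan01_00789. It stood between 1.29 and 7.16 CPM on day 2 (median 2.66) and between 0.345 and 0.733 on day 3 (median 0.566), with no overlap. The log2 fold change was -2.46 ± 0.40 (5.51-fold lower, edgeR adjusted p = 0.0269). In controls its medians were 2.43 and 1.09 CPM, and the change there was -0.96 ± 0.38 (edgeR adjusted p = 0.293). The difference of -1.50 ± 0.54 did not pass (edgeR adjusted p = 0.34).

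Whether the day change differed between treatments was tested for every gene, and edgeR called 0 (0.0%), while 1766 had an unadjusted p under 0.05. No adjusted p in edgeR was below 0.295. The count was 219 in DESeq2 and 0 in limma-voom. Without control 72 h replicate 5 edgeR called 440 genes, and without imidacloprid 48 h replicate 5 it called 2. No gene is therefore given as changing with the day in 1 treatment alone. The co-varying set had opposite directions here: its median log2 fold change was -1.59 in controls, where 104 of 108 genes were lower on day 3, and 6.35 with imidacloprid, where all 108 were higher. The day 2 imidacloprid libraries were all low in the set, so the size of the latter depends on counts near 0. None of the 108 genes was called in either treatment, where 0.031% and 0.0258% of all tested genes were. For the difference, 99 had an unadjusted p under 0.05. The set was chosen because its genes move together in these libraries. These counts therefore follow from which libraries were high, and are not 108 separate results.

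The hour classes were compared in the same way. Between 36 and 60 h, 5 genes were called (0.0258%, with 3 or 0.0155% higher and 2 or 0.0103% lower), and between 48 and 72 h 112 (0.578%, with 93 or 0.48% higher and 19 or 0.0981% lower). The counts were 85 and 2825 in DESeq2, and 6 and 241 in limma-voom. Unadjusted p-values under 0.05 were reached by 1394 and 6404 genes. The shift between 48 and 72 h was lopsided, with a median log2 fold change over all tested genes of 0.17, against 0.02 between 36 and 60 h. Its calls moved with single libraries. Without imidacloprid 48 h replicate 5 the 112 calls became 6181, without imidacloprid 60 h replicate 3 they became 2026, without control 72 h replicate 4 705, and in 17 of 24 runs without 1 library 0. Without imidacloprid 36 h replicate 2 or control 60 h replicate 5 there were 29 and 32. The 5 calls between 36 and 60 h became 0 without control 36 h replicate 3 and without imidacloprid 36 h replicate 1 or 2, and lay between 1 and 10 in the other runs.

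Across genes, the changes in the hour classes, which share no library, had a Spearman correlation of 0.57 and a Pearson correlation of 0.55 over 19366 genes. Their p-values likewise rest on a shared estimate of spread for each gene and are not independent. Genes are not independent replicates here either. Without the 108 genes of the co-varying set the correlations were 0.56 and 0.52. The set itself had a median log2 fold change of 1.84 between 36 and 60 h and of 2.86 between 48 and 72 h. Of the 836 genes higher at 60 h at an unadjusted p under 0.05, 92.7% were also higher at 72 h, where 60.0% of all genes were. Of the 558 lower genes, 55.2% were also lower, where 40.0% of all genes were. Read the other way, 78.5% of the 3774 genes higher at 72 h were also higher at 60 h, where 52.2% of all genes were, and 90.04% of the 2630 lower genes were also lower, where 47.8% of all were. A test of the difference between hour classes called 0 genes in edgeR (0.0%), where 1420 had an unadjusted p under 0.05 and no adjusted p was below 0.109. The count was 43 in DESeq2 and 0 in limma-voom.

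Among the 5 genes called between 36 and 60 h, Fcan01_26995 had the largest rise. It stood at 1.09, 1.92 and 4.55 CPM in controls and 1.17, 1.58 and 2.14 with imidacloprid at 36 h. The values at 60 h were 16.1, 16.4 and 54.6 CPM in controls and 8.26, 17.6 and 48.2 with imidacloprid. The lowest library at 60 h was therefore above the highest at 36 h, and the log2 fold change was 3.72 ± 0.49 (13.2-fold, edgeR adjusted p = 0.00577). Between 48 and 72 h it changed by 1.91 ± 0.44, just short of the threshold (edgeR adjusted p = 0.0511). The call at 60 h was lost without control 36 h replicate 3 and without imidacloprid 36 h replicate 1 or 2. All 5 genes were chosen on these libraries, so separation of the hours in them is partly fixed by the choice. How many of all tested genes separate the hours was not counted.

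Fcan01_11010 followed, from 21.9, 23.5 and 48.3 CPM in controls and 21.0, 21.1 and 26.0 with imidacloprid at 36 h. At 60 h the values were 69.7, 129.998 and 251 CPM in controls and 121, 122 and 494 with imidacloprid. No value at 36 h reached the lowest at 60 h, and the log2 fold change was 2.85 ± 0.42 (7.21-fold, edgeR adjusted p = 0.0161). Fcan01_09354, named because the list is short, rose by 0.95 ± 0.16 (1.93-fold, edgeR adjusted p = 0.0398). Its values went from 56.0, 58.0 and 72.9 CPM in controls and 82.0, 88.9 and 101 with imidacloprid to 115, 155 and 172 and to 123, 143 and 160.2. Here too the hours did not overlap. Of the 24 runs without 1 library, the call at 60 h held in 19 for Fcan01_11010 and in 8 for Fcan01_09354. It was lost in 1 and in 3 of 11 other alternatives.

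In both genes called lower at 60 h the hours did not overlap either, which is partly fixed by their choice on these libraries. Fcan01_12079 stood between 2.12 and 4.04 CPM in the 6 libraries at 36 h and between 0.259 and 1.24 in those at 60 h, a change of -2.07 ± 0.35 (4.20-fold lower, edgeR adjusted p = 0.0398). Fcan01_21414 went from 6.71, 7.23 and 10.3 CPM in controls and 3.55, 4.79 and 6.56 with imidacloprid to 1.63, 1.84 and 2.72 and to 1.21, 1.21 and 1.498. Its change from 36 to 60 h was -1.94 ± 0.33 (3.84-fold lower, edgeR adjusted p = 0.0398). Between 48 and 72 h it was -0.55 ± 0.32 (edgeR adjusted p = 0.214). Controls stood at 3.27, 3.49 and 4.95 CPM at 48 h and at 1.15, 3.65 and 6.60 at 72 h. The 60 h calls of Fcan01_12079 and Fcan01_21414 each held in 5 of 24 runs without 1 library.

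Between 48 and 72 h, Fcan01_01634 had the largest fitted rise. It was listed at 0 counts in all 3 control libraries at 48 h and stood at 0, 2.98 and 6.33 CPM with imidacloprid. At 72 h it was found at 4.47, 4.54 and 10.1 CPM in controls and at 9.76, 10.4 and 13.5 with imidacloprid. The mean of the 3 control libraries at 72 h (6.37 CPM) was 50.4-fold above a floor of 3 counts in a single 48 h library (0.126 CPM). This mean is raised by the library at 10.1 CPM. The edgeR adjusted p for 72 against 48 h over both treatments was 0.0481. The gene had been present on day 1, at 1.27 to 8.23 CPM, and in all 3 controls at 36 h, at 0.816, 1.38 and 2.12 CPM.

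Fcan01_18110 rose from 2.35, 3.73 and 4.34 CPM in controls and 5.76, 23.7 and 51.5 with imidacloprid at 48 h. The values at 72 h were 18.5, 32.6 and 35.0 CPM and 54.9, 67.5 and 85.9. Within each treatment the hours did not overlap, which is partly fixed by the choice of the gene on these libraries. Its log2 fold change was 2.22 ± 0.47 (4.65-fold, edgeR adjusted p = 0.0481). From 36 to 60 h its change was -0.44 in controls and 1.73 with imidacloprid in log2 units, so it did not move the same way in all 4 combinations of treatment and hour class.

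Of the genes lower at 72 h, Fcan01_01126 went from 1.88, 5.83 and 11.7 CPM in controls and 1.05, 1.92 and 3.34 with imidacloprid to 0.552, 0.873 and 1.51 and to 0.544, 0.587 and 0.709. Of the 6 libraries at 72 h, 5 lay below all at 48 h, and the log2 fold change was -2.25 ± 0.50 (4.75-fold lower, edgeR adjusted p = 0.0481). Fcan01_17513 changed by -2.08 ± 0.45 in this hour class (4.23-fold lower, edgeR adjusted p = 0.0481) and by -2.49 ± 0.45 between 36 and 60 h (edgeR adjusted p = 0.0589). The calls of these 4 genes held in 3 to 5 of the 24 runs without 1 library.

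**Figure D5:**
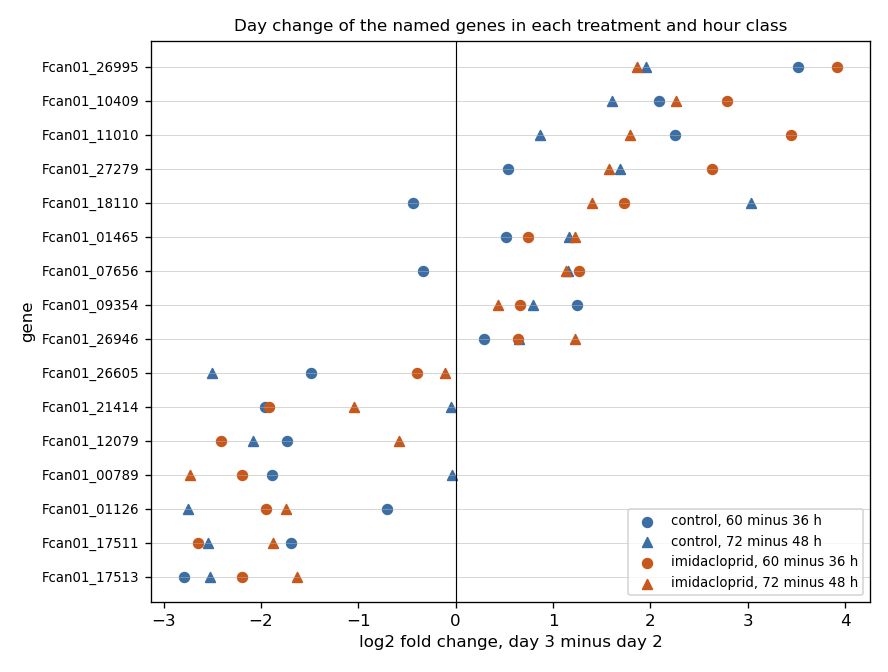
Log2 fold change from day 2 to day 3 of 16 named genes (y axis) in each treatment and hour class. Circles are 60 minus 36 h, triangles 72 minus 48 h, blue controls and orange imidacloprid, and Fcan01_01634, listed at 0 in controls at 48 h, is left out. Fcan01_26995 lies between 1.87 and 3.92 and Fcan01_17513 between -2.79 and -1.63, whereas Fcan01_26605 lies at -1.48 and -2.50 in controls and at -0.40 and -0.10 with imidacloprid.

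Over the 181 called genes, the sign of the day change was the same in all 4 combinations of treatment and hour class for 117 of the 119 that rose and all 62 that fell, against 28.4% of all tested genes. Their median log2 fold changes differed in size. For the genes that rose they were 0.41 in controls and 1.02 with imidacloprid between 36 and 60 h, and 1.02 and 0.85 between 48 and 72 h. For those that fell they were -0.64, -0.79, -0.82 and -0.63 in the same order. The genes were chosen on these libraries, so the signs are partly fixed by the choice.

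Finally, the step from day 2 to day 3 was set against that from day 1 to day 2 in a fit of all 36 libraries. The steps differed in 2 of 19600 genes (0.0102%), both higher in the later step, while 4146 genes had an unadjusted p under 0.05. The steps differed in 390 genes by adjusted p in DESeq2 and in 2 in limma-voom. Fcan01_01465 stood between 3.81 and 9.19 CPM on day 1 (median 5.17), between 1.78 and 4.18 on day 2 (median 2.27) and between 2.24 and 7.58 on day 3 (median 4.83). Of its day 3 libraries 9 of 12 lay above every day 2 library. The steps differed by 2.09 ± 0.30 in log2 units (edgeR adjusted p = 0.00138), and the rise from day 2 to day 3 alone was 0.91 ± 0.16 (edgeR adjusted p = 0.0102). Fcan01_26946 stood between 1.84 and 4.48 CPM on day 1 (median 2.95), between 0.755 and 2.25 on day 2 (median 1.39) and between 1.284 and 3.81 on day 3 (median 2.19). Its steps differed by 1.79 ± 0.25 (edgeR adjusted p = 0.00138), and its rise from day 2 to day 3 was 0.70 ± 0.17 (edgeR adjusted p = 0.0479). Both genes were thus lowest on day 2, and both calls of a difference between steps held in all 36 runs without 1 library. The number of genes called for this difference rose to 2505 without imidacloprid 48 h replicate 5 and lay between 2 and 10 in the other runs. The call of the rise from day 2 to day 3 was less even. For Fcan01_01465 it held in all 24 runs without 1 library and in 10 of 12 other alternatives. For Fcan01_26946 it held in 8 of the 24 runs and in 3 other alternatives.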

How the data were processed

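RNA was isolated with TRIzol and 1 ug of it went into TruSeq stranded mRNA libraries, per the labels' protocols. The labels' protocols also state that the authors used Trim Galore (a cut-adapt wrapper, version 0.6.7) for trimming, Salmon 1.4.0 for quantification and DESeq2 1.28.1 for normalization. They name no transcriptome release. The table the authors deposited holds estimated counts that were whole numbers (0 were not) and whose totals differ between libraries, so it was read as not yet normalized and rounding changed no value. Salmon shares reads out among similar transcripts, which leaves near-identical gene copies uncertain. None of the 28734 identifiers matched a table of 27231 genes (0 found), so lists of genes and cell type markers that rest on product names were not run.

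Groups, times and replicate numbers came from the labels. The title of imidacloprid 60 h replicate 1 carries library number 34, which falls between the numbers 33 and 35 of imidacloprid 36 h libraries, and 2 imidacloprid 72 h libraries, numbered 71 and 72, both carry replicate number 4. Chi-square per degree of freedom between libraries of a group was 28.0 to 342 over 24 pairs, with 0 identical pairs. This finds copied libraries only and cannot show whether a library stands in the wrong time group. All were kept as labelled, and an alternative left out or summed those of irregular titles.

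The filter was filterByExpr with a minimum count of 10 and a minimum total of 15, and scaling was by TMM. In R 4.3.3, edgeR 4.0.16 fitted robust quasi-likelihood models: an additive one of treatment, hour class and day (20 residual degrees of freedom, biological coefficient of variation 40.2%), one of 8 group means (16) and, for the steps between days, one of 12 group means over 36 libraries (24). P-values were adjusted by Benjamini-Hochberg over all tested genes of a comparison, and a gene is called below 0.05. CPM use TMM-scaled library sizes. The co-varying set came from clustering all 36 libraries' genes with a variance of log2 CPM (prior count 2) above 4, by complete linkage at a height of 0.5, and is the largest cluster. The standard error is the log2 fold change divided by the square root of F. The floor of 3 counts covers counting error only.

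The named genes are the 2 largest rises and falls among calls of at least 1 CPM, for day 3 against day 2 with the same sign in all 4 combinations of treatment and hour class, and every call of a comparison with 5 or fewer. The comparison, the co-varying set and the rules were chosen with earlier results of these data known. Alternatives were DESeq2 1.42.0, limma-voom (limma 3.58.1), DESeq2 size factors, other filters, a replicate block, the set's level or 1 surrogate variable (sva 3.50.0) in the model, other designs, and leaving out libraries. The tests were also run on simulated counts, drawn independently for each library with a planted day change in some genes. Those counts hold no co-varying set and no library that stands apart. The run therefore says nothing about how calls moved with single libraries.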

Additional observations from a re-analysis of the deposited data

Results flagged for a closer look

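In 2 genes the step from day 2 to day 3 differed from the step from day 1 to day 2, by a test of that difference over all 36 libraries. For Fcan01_01465 the difference was 2.09 ± 0.30 in log2 units (SE, edgeR adjusted p = 0.00138), and for Fcan01_26946 it was 1.79 ± 0.25 (edgeR adjusted p = 0.00138). In the fit of the 24 libraries both rose from day 2 to day 3, by 0.91 and 0.70. The call of that rise held in 24 of 24 runs without 1 library for Fcan01_01465 and in 8 for Fcan01_26946. Without the libraries in which the co-varying set was high the differences were 2.02 and 1.64 and neither passed (edgeR adjusted p = 0.588 for both, the highest over their alternatives, the lowest being 1.08e-08 and 4.68e-08). Both steps share the day 2 libraries.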

How the results depend on the processing

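No named gene changed direction under any alternative run, but counts of calls moved widely. With all libraries 181 genes were called for the pooled day change (P), 5 for 60 against 36 h (E), 112 for 72 against 48 h (L), 6 in controls (C), 5 with imidacloprid (I), 0 for the difference between treatments (T), 0 for that between hour classes (H) and 2 for that between steps (S). DESeq2 called 2584 (P), 85 (E), 2825 (L), 128 (C), 1589 (I), 219 (T), 43 (H) and 390 (S). Limma-voom moved L to 241, C to 10 and I to 0. DESeq2 size factors moved E to 9 (4 higher, 5 lower), L to 182, I to 15 and S to 4. With no filter P became 72, L 0 and C 3, and with 5 CPM required in 3 libraries E became 3, L 542, C 1 and S 1. Adding the set's level to the model gave 64 for P and 0 for L, C and I. With 1 surrogate variable P became 63, E 23, L 0, C 11 and I 13. Leaving out or summing libraries of irregular titles gave 63 (P), 2 (E), 0 (L, C and I) and 54 (S). A mean for each of the 8 groups gave 490 for P, and all 36 libraries gave 1667 (P), 1069 (L) and 26 (I). Without the libraries high in the co-varying set, an alternative chosen after seeing the data, there were 0 (P), 2 (E), 0 (L), 1 (C), 1 (I), 1 (T), 0 (H) and 0 (S). Leaving out 1 library at a time gave 43 to 4963 (P), 0 to 10 (E), 0 to 6181 (L), 0 to 8 (C), 0 to 3067 (I), 0 to 440 (T), 0 to 0 (H) and 2 to 2505 (S). Without the library numbered 71 P was 71 and I 18, and without that numbered 72 P was 100. The cause of these shifts was not tested.

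With the replicate number as a term (replicate block) the counts became 47 (P), 1 (E), 0 (L), 3 (C), 259 (I) and 210 (T). Same-numbered libraries of different groups did not deviate together more than others. Of such pairs, 13 of 37 had a correlation over 0.1 (mean -0.0026), against 83 of 215 other pairs (mean 0.0003). Deviations were taken from group means, so means near 0 are partly fixed in advance. The numbers were therefore not taken to pair libraries. Depth limits genes near the floor of 3 counts, such as Fcan01_17511 on day 3.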
